A study of Homo sapiens with 18 samples.

Results

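The genes described here are 3 receptors of the ERBB family (EGFR, ERBB2 and ERBB3), 6 ligands of EGFR (AREG, EREG, HBEGF, TGFA, BTC and EPGN) and ERRFI1, an inhibitor of the receptor. They were chosen by gene ID, and all 10 were found among the 23604 rows listed in at least 1 of the RNA-Seq libraries. All 10 passed the filter on low counts. The cells were MCF10A-ErSrc, an immortalized human breast epithelial line that carries the v-Src kinase fused to a part of the oestrogen receptor, so that tamoxifen switches it on. Every group carries the transgene, also the groups without tamoxifen.

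The groups were NT (no tamoxifen, DMSO), NT + TPL (no tamoxifen, triptolide, given as TPL-125nM), TAM (transformed with tamoxifen, DMSO) and TAM + TPL (tamoxifen with the same TPL-125nM treatment), each with 4 h of DMSO or triptolide. Triptolide (TPL), a compound from a medicinal plant, binds XPB, a subunit of the general transcription factor TFIIH. The RNA-Seq part has 2 biological replicates per group, and the RNAPII ChIP-Seq part gives 1 list of peaks per group. The line grows in a medium with added EGF.

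ERBB receptors are tyrosine kinases of the cell surface. A ligand makes EGFR pair with another EGFR or with ERBB2 or ERBB3, and the paired receptors start the RAS-MAPK and PI3K-AKT pathways. ERBB2 has no known ligand of its own, and ERBB3 has a weak kinase and signals through its partner. The ligands are made as proteins anchored in the membrane and are cut free mostly by the protease ADAM17. ERRFI1 (also MIG6) binds the kinase of EGFR and restrains it. Mammary basal epithelial cells, the cell type that MCF10A resembles, depend on EGF to grow, and AREG is a main EGFR ligand of the mammary gland.

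The libraries held between 7461309 and 8349448 expected counts, the reads per gene as RSEM estimated them. Levels are given as FPKM, which divide the counts by transcript length and by library depth, so that genes can be compared. Both are shares of a library, so fewer cells that express a gene, less of its RNA per cell and a change in all other mRNAs cannot be told apart. Of 8 basal epithelial markers all were listed, with KRT5 between 434 and 6250 FPKM, and together they reached 16949 to 18685 FPKM in NT libraries and 10733 to 13679 with TPL, and 7431 to 7741 FPKM in TAM libraries and 3835 to 4197 with TPL. KRT5, KRT17 and KRT6A made up most of this sum, and the markers did not all move with it. With TPL in NT cells ITGB4 went from 366 and 393 FPKM to 724 and 533, while most others were lower. Between NT and TAM libraries KRT6A and TP63 overlapped, and the others were lower in TAM. Of 8 markers of fibroblasts, endothelium or blood 7 were listed, with CDH5 at 0 in all 8 libraries and CD68 (47.1 to 473 FPKM) making up most of their sum, which was 56.7 to 57.1 FPKM in NT libraries and 87.9 to 105 with TPL, and 287 to 306 FPKM in TAM libraries and 417 to 482 with TPL. Of 4 luminal hormone receptor markers all were listed, PGR at 0.01 FPKM or less, and their sum, mostly ESR1, was 209 to 259 FPKM in NT libraries and 80.9 to 134 with TPL, and 78.3 to 105 FPKM in TAM libraries and 40.9 to 43.5 with TPL. The transgene holds a part of the oestrogen receptor that ESR1 encodes, and the share of its reads that come from the transgene was not tested. The part of these marker shifts in the results was not tested.

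In NT cells the ligands and receptors formed an order with AREG at the top. AREG had a mean of 96.3 FPKM ± 5.35 (SD, n = 2), EGFR 53.6 ± 29.6 and EPGN 30.2 ± 2.76. ERBB2, ERRFI1, EREG, TGFA, HBEGF and ERBB3 followed with means from 14.5 to 10.8 FPKM, and each of them overlapped its neighbour in this order. BTC was last at 0.82 FPKM in each replicate. With TPL, HBEGF had the highest mean of the 10 genes in both cell states, 114 FPKM ± 20.7 in NT + TPL and 75.4 ± 8.19 in TAM + TPL (SD, n = 2), ahead of AREG, and its lower replicate lay above both AREG replicates. In the TAM libraries without TPL HBEGF ranked 9 of the 10.

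**Figure D1:**
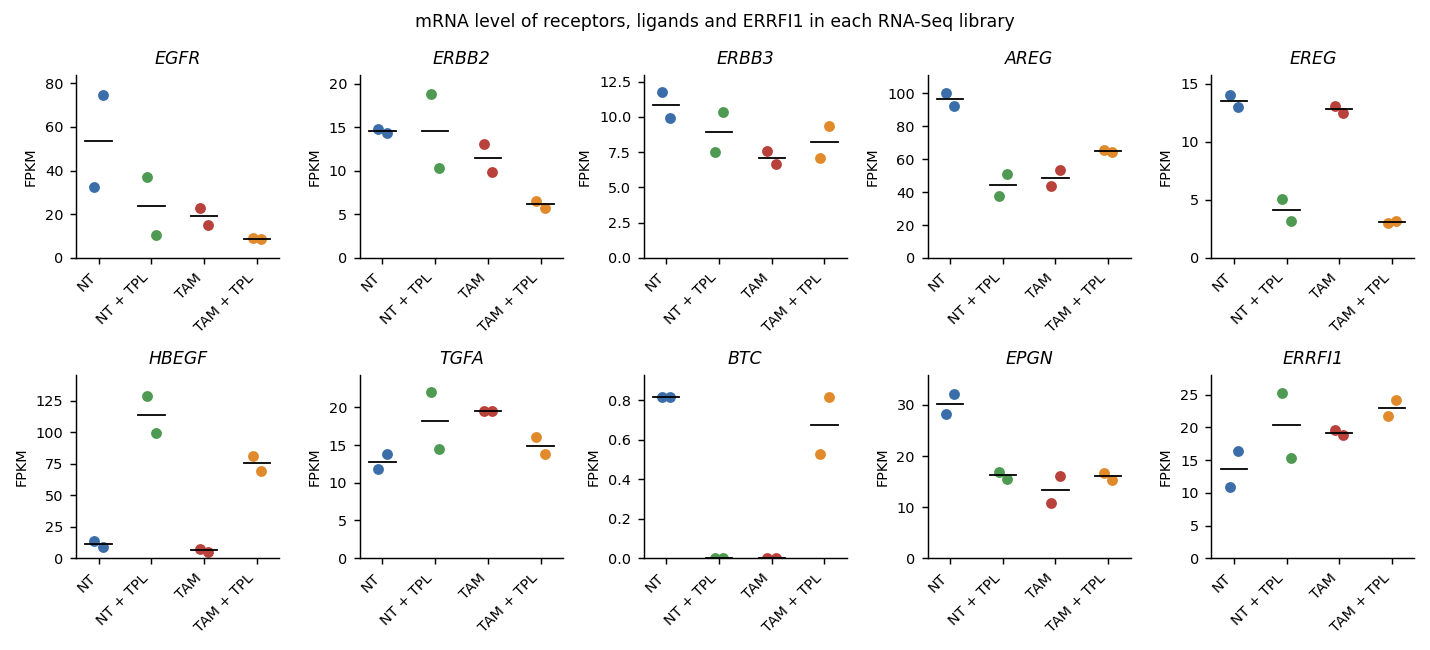
Level of each gene in FPKM (vertical axes, each from 0) in the 8 RNA-Seq libraries, with 1 point per library and a line at the mean of the 2 replicates of a group. HBEGF lies between 69.6 and 129 FPKM in the 4 TPL libraries and between 5.32 and 13.9 in the 4 DMSO libraries, while EREG is lower in each TPL library than in each DMSO library.

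The first comparison asks which of these mRNAs changed with TPL in each cell state. Calls were made with edgeR's quasi-likelihood test and needed both a Benjamini-Hochberg adjusted p no higher than 0.001 and a change of 1.2 or more on the log2 scale in either direction. In NT cells 1 of the 10 genes was called higher (HBEGF), where 1.22% of all 16948 genes tested were, and 0 were called lower, where 2.71% were. In TAM cells 1 was called higher (HBEGF), against 0.844% of all genes, and 1 lower (EREG), against 2.04%. DESeq2 called 2 of the 10 in each cell state, HBEGF higher and EREG lower. In either direction it called 2534 of 16231 genes in NT and 2272 of 16687 in TAM cells. At an adjusted p of at most 0.05 with no minimum fold change, 1 gene was higher in NT cells (17.2% of all genes) and 4 were lower (19.8%), and in TAM cells 2 were higher (14.3%) and 2 lower (18.6%). BTC is counted among these 4 in NT and among the 2 higher in TAM cells, and with its rows summed it did not pass, as described with BTC. TGFA is not counted, and with its rows summed it passed as higher in NT cells (log2 fold change 0.65, edgeR adjusted p = 0.0286). Over the 10 genes the log2 fold change had a median of -0.64 with TPL in NT cells (0.09 over all genes) and 0.02 in TAM cells (0.05). With BTC taken from its summed rows the medians were -0.35 and -0.01, and with BTC at its bound they were -0.64 and 0.02.

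**Figure D2:**
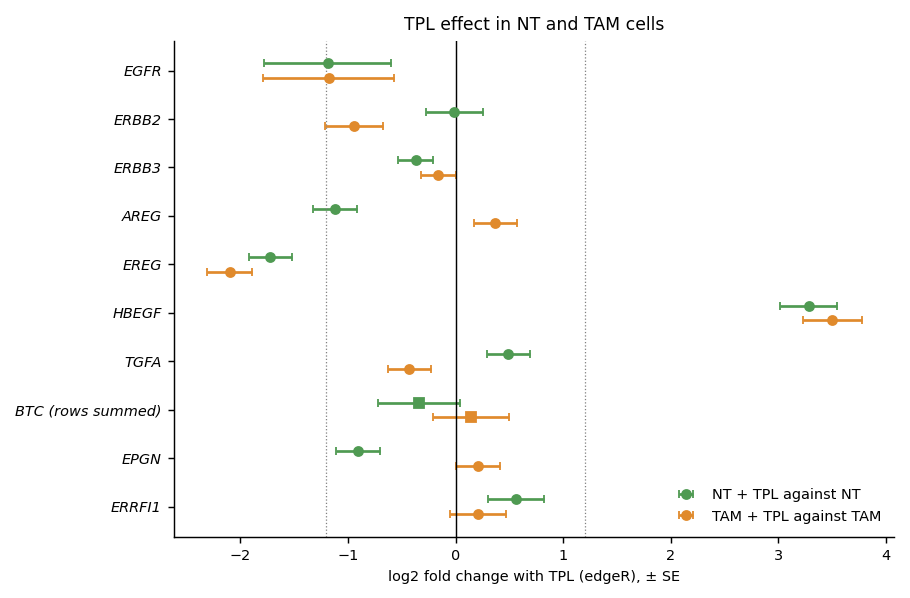
Log2 fold change with TPL (horizontal axis) for each gene, with bars for the standard error from edgeR, in NT cells (green) and TAM cells (orange). Dotted lines mark 1.2 in either direction, and BTC is shown with its 2 rows summed. HBEGF is at 3.28 and 3.50, EREG at -1.72 and -2.10, and AREG is at -1.12 in NT and 0.37 in TAM cells.

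HBEGF, a ligand that binds heparan sulphate as well as EGFR and ERBB4, is annotated at chr5:139712428-139726188 of GRCh37 (minus strand, 6 exons in the canonical transcript). It measured 13.9 and 9.30 FPKM in the DMSO libraries of NT cells and 129 and 99.5 with TPL. The TAM libraries gave 7.60 and 5.32 FPKM with DMSO and 81.2 and 69.6 with TPL. All 4 TPL libraries were above all 4 DMSO libraries, with no overlap. HBEGF rose 9.75-fold with TPL in NT cells (log2 fold change 3.28, SE 0.267, edgeR adjusted p = 0.000408). In TAM cells it rose 11.3-fold (log2 fold change 3.50, SE 0.274, edgeR adjusted p = 0.000419). The difference between these effects was 0.21 (SE 0.356, edgeR adjusted p = 0.88). Leaving out any 1 of the 8 libraries gave log2 fold changes from 3.01 to 3.59 in NT cells, with adjusted p values from 0.00148 to 0.00432, all past the limit of 0.001, in fits that called between 0 and 213 genes in all. In TAM cells the range was 3.25 to 3.76. The call remained without either NT + TPL library and was lost without any of the other 6. The fits that lost it made no other call either, so its loss there says little about HBEGF. A replicate block (adjusted p 0.00104 in NT and 0.0012 in TAM cells) and limma on log2(FPKM + 0.1) (0.00123 and 0.00127) also ended both calls. A fit on the NT groups alone ended that in NT cells (0.00774). With the block and with the NT groups alone 0 of all genes were called with TPL.

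The sequence around the HBEGF start site is shown because this promoter kept its RNAPII peak and gained in width with TPL. It is chr5:139726139-139726438 of GRCh37 on the minus strand, 250 bases before and 50 from the TSS (the first transcribed base is +1), with each GC box (GGGCGG or its complement CCGCCC) in capitals.
HBEGF: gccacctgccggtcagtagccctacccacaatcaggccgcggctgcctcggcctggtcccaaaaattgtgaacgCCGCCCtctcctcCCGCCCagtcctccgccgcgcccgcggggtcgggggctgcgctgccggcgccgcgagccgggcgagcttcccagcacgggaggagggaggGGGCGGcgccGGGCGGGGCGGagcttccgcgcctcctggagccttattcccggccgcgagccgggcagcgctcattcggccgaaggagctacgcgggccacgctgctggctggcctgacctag
The window holds 5 GC boxes, which start at -176, -163, -73, -63 and -58, and the last pair shares 1 base. Of 19862 promoters of protein-coding genes of the same length, 61.5% hold at least 1 GC box. The TATA box letters TATAAA, the CRE TGACGTCA and the AP-1 letters TGANTCA were not in this window.

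EREG, a ligand of EGFR and ERBB4, measured 14.1 and 13.0 FPKM in the DMSO libraries of NT cells and 5.12 and 3.22 with TPL. Transformed cells held 13.1 and 12.5 FPKM with DMSO and 3.02 and 3.18 with TPL. The 4 TPL libraries were below the 4 DMSO libraries, while NT and TAM cells overlapped with DMSO and both TAM + TPL libraries were below both NT + TPL libraries. EREG fell 4.28-fold with TPL in TAM cells (log2 fold change -2.10, SE 0.208, edgeR adjusted p = 0.000827). In NT cells the change of 3.28-fold (log2 fold change -1.72, SE 0.204) missed the limit for a call, with an adjusted p = 0.00132 from edgeR, and DESeq2 called it (log2 fold change -1.71, DESeq2 adjusted p = 2.08e-13). With edgeR the NT change was called with GAPDH as reference (adjusted p 0.000724) and with no filter on low counts (0.000744). It was also called with at least 10 counts in every library (0.000152) and with accession rows summed (7.19e-05). Of 13 alternatives other than leaving out a library, 5 called it, DESeq2 included. The difference between the TPL effects was -0.38 (SE 0.284, edgeR adjusted p = 0.663). Leaving out any 1 library kept the TAM value between -2.14 and -2.07, and of these fits the call held only in those without an NT + TPL library. The fits that lost it made no other call either, so its loss there says little about EREG. The TAM call was also lost with upper quartile normalization (adjusted p 0.00142), library size only (0.00132) and limma with either pseudocount (0.0013 and 0.00302). A replicate block lost it too (0.00249), with 0 of all genes called.

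AREG, the most abundant ligand without TPL, measured 100 and 92.5 FPKM in the DMSO libraries of NT cells and 37.5 and 51.1 with TPL. Its TAM libraries showed 43.6 and 53.5 FPKM with DMSO and 65.5 and 64.3 with TPL. The NT + TPL libraries were below both NT libraries, and the TAM + TPL libraries were above both TAM libraries. The log2 fold change with TPL was -1.12 in NT cells (SE 0.202, edgeR adjusted p = 0.00637), which is under the fold a call needs. It was 0.37 in TAM cells (SE 0.2, edgeR adjusted p = 0.193). The difference between the effects was 1.49 (SE 0.284), with an adjusted p = 0.149 from edgeR, and DESeq2 called it (1.5, DESeq2 adjusted p = 1.95e-05). Over the alternatives that keep all 8 libraries, this adjusted p lay between 1.95e-05 and 0.247.

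EPGN, epigen, a ligand with weak binding to EGFR, measured 28.3 and 32.2 FPKM in the DMSO libraries of NT cells and 16.9 and 15.5 with TPL. The TAM libraries gave 10.9 and 16.0 FPKM with DMSO and 16.8 and 15.4 with TPL. Both NT libraries were above all other libraries, and the TAM and TAM + TPL libraries overlapped. The log2 fold change with TPL was -0.91 in NT cells (SE 0.204, edgeR adjusted p = 0.0144) and 0.21 in TAM cells (SE 0.205, edgeR adjusted p = 0.465), with a difference of 1.11 (SE 0.289, edgeR adjusted p = 0.262).

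EPGN, EREG, AREG and BTC lie side by side on chromosome 4 of GRCh37, between 75174187 (the TSS of EPGN, plus strand) and 75719733 (the TSS of BTC, minus strand). The promoters of EPGN, EREG and AREG are shown because each holds TATAAA on the plus strand near the same distance from the TSS. The windows are chr4:75173937-75174236, chr4:75230612-75230911 and chr4:75310603-75310902 of GRCh37, all on the plus strand, with the TATA box, GC box and CRE letters in capitals.
EPGN: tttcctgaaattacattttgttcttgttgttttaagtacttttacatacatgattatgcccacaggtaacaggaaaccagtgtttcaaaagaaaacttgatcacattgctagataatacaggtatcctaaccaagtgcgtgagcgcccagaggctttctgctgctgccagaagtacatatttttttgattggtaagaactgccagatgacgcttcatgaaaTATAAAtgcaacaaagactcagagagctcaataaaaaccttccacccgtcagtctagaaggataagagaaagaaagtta
EREG: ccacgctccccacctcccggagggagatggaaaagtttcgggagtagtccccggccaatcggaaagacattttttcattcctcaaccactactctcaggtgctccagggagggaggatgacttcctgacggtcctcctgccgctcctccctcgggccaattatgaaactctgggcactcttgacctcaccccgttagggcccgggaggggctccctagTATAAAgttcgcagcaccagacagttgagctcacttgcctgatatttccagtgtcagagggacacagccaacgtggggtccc
AREG: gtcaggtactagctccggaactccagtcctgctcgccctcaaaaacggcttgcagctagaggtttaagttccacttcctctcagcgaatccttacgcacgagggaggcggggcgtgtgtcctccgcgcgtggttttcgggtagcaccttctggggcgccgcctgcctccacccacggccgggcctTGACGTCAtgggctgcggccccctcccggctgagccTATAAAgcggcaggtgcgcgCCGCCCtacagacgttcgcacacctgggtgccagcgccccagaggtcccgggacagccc
TATAAA starts at -29 in EPGN, at -32 in EREG and at -29 in AREG. It was found in 3 of the 10 genes and in 9.63% of 19862 protein-coding promoters, with both strands searched. AREG also holds the CRE letters TGACGTCA at -65, which 2.68% of the promoters hold, and a GC box that starts at -9. The AP-1 letters were found in ERBB3 among the 10 genes, at -108, and in 5.41% of the promoters. The 300 bases of the AREG window are present a further time on chromosome 4, at chr4:75480379-75480678, with 300 of 300 bases identical. ChIP reads from these positions cannot be told apart, and the lists hold 0 peaks at the copy. Other chromosomes and the minus strand were not searched for copies.

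TGFA, transforming growth factor alpha, measured 11.8 and 13.9 FPKM in the DMSO libraries of NT cells and 22.0 and 14.4 with TPL. Both TAM libraries held 19.5 FPKM, and those with TPL 16.1 and 13.8. The NT + TPL libraries were above both NT libraries, and the TAM + TPL libraries were below both TAM libraries. The log2 fold change with TPL was 0.49 in NT cells (SE 0.201, edgeR adjusted p = 0.0955) and -0.43 in TAM cells (SE 0.2, edgeR adjusted p = 0.14), and the difference of -0.92 (SE 0.284) had an adjusted p = 0.334. TGFA has 2 further rows under RefSeq accessions, which held reads in 5 of the 8 libraries. Summed over its 3 rows, TGFA held 417 and 491 counts in the NT libraries against 863 and 496 with TPL, and 712 and 723 counts in the TAM libraries against 543 and 592 with TPL. With all genes refitted on summed rows its log2 fold change with TPL was 0.65 in NT cells (SE 0.218, edgeR adjusted p = 0.0286). In TAM cells it was -0.29 (SE 0.216, edgeR adjusted p = 0.288).

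BTC, betacellulin, a ligand of EGFR and ERBB4, was the lowest of the 10. Its gene ID row held 19.0 expected counts in each NT replicate and 0 in both with TPL. In TAM cells it was 0 in both DMSO libraries, and 11.2 and 19.0 counts were found with TPL. Against a floor of 3 counts per library this row was at least 5.94-fold lower with TPL in NT cells and at least 5.32-fold higher with TPL in TAM cells. A second row, under the RefSeq accession of another transcript of BTC, held 20 and 10 counts in the NT libraries against 30 and 21 with TPL, and 49 and 45 counts in the TAM libraries against 25.8 and 45 with TPL. The second row was above 0 in every library in which the first was at 0. Summed over both rows, with all genes refitted in the same way, the log2 fold change with TPL was -0.34 in NT (SE 0.38, edgeR adjusted p = 0.478) and 0.14 in TAM cells (SE 0.352, edgeR adjusted p = 0.771), and that of TAM against NT was 0.44 (SE 0.362, edgeR adjusted p = 0.537). The sum was chosen after the rows were seen.

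**Figure D3:**
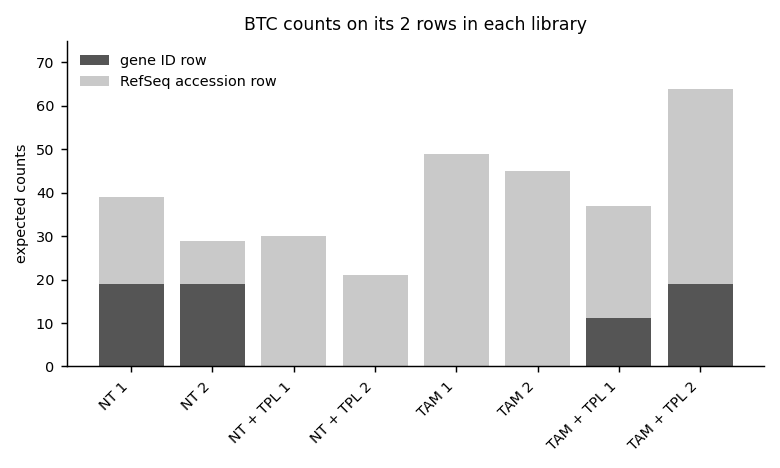
Expected counts of BTC (vertical axis, from 0) in each of the 8 libraries, split into its gene ID row (dark) and its RefSeq accession row (light). The gene ID row is at 0 in 4 libraries, and the summed counts lie between 21 and 64 in all 8.

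EGFR, the receptor itself, is annotated at chr7:55086710-55279321 of GRCh37 (plus strand, 28 exons in the canonical transcript). It measured 32.7 and 74.5 FPKM in the DMSO libraries of NT cells and 37.1 and 10.3 with TPL. Transformed cells held 23.0 and 15.1 FPKM with DMSO and 8.90 and 8.55 with TPL. The TAM + TPL libraries were below both TAM libraries, whereas NT and NT + TPL overlapped. The log2 fold change with TPL was -1.19 in NT (SE 0.593, edgeR adjusted p = 0.155) and -1.18 in TAM cells (SE 0.605, edgeR adjusted p = 0.173). The standard errors were the largest of the 10 genes except BTC. Leaving out NT replicate 2 gave -0.49 in NT cells and leaving out NT + TPL replicate 2 gave -0.54, whereas without NT + TPL replicate 1 it was -2.33 (edgeR adjusted p = 0.0207).

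In NT and NT + TPL the EGFR replicates differed more than those of nearly all other genes, and in TAM + TPL they did not. Replicate 2 was above replicate 1 by 1.18 on the log2 scale in NT, and 0.867% of 10606 genes with at least 50 counts were as far from 0. In NT + TPL the log2 ratio was -1.85, and 0.289% of 10390 genes were as far from 0. The ratio of replicates moved with transcript length in these groups and, over a smaller range, in TAM. Genes of 5000 to 6500 bases, which include EGFR (5599 bases), had a median of 0.203 in NT and -0.281 in NT + TPL, and genes under 1000 bases had -0.261 and 0.364. In TAM and TAM + TPL the medians of the long genes were -0.058 and 0.043, and those of genes under 1000 bases 0.157 and 0.026. EGFR was at -0.60 in TAM and -0.06 in TAM + TPL, with 4.83% of 10606 and 83.9% of 10713 genes as far from 0. The part of transcript length in the EGFR values was not tested.

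**Figure D4:**
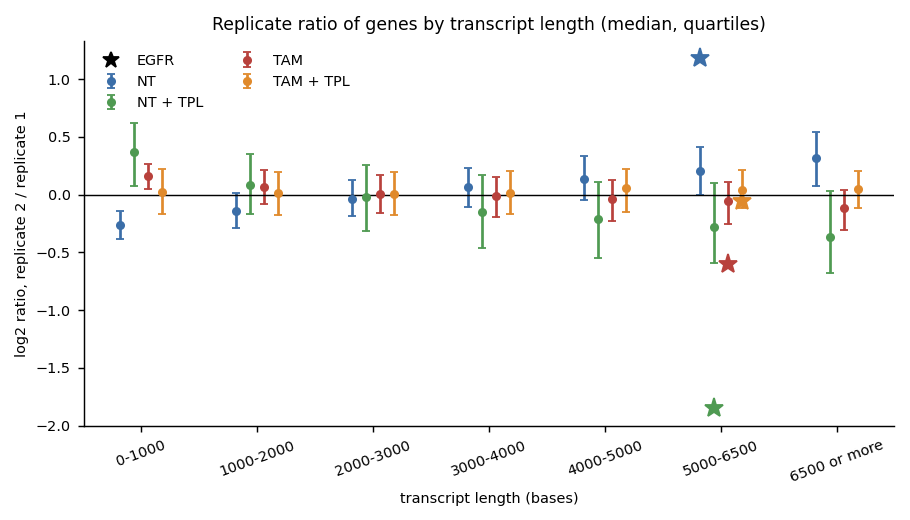
Log2 ratio of replicate 2 to replicate 1 (vertical axis) by transcript length in bases (horizontal axis), as the median with quartiles over genes with at least 50 counts in both replicates of a group, and stars for EGFR. The medians rise with length in NT and fall in NT + TPL and, over a smaller range, in TAM. EGFR lies outside the quartiles of its length in NT, NT + TPL and TAM.

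The 5 genes whose level followed that of EGFR most closely over the 8 libraries, among 14135 genes with a mean of at least 1 FPKM, were DSP (Pearson's r 0.986), MYO9A (0.977), AHNAK (0.972), CCNO (0.97) and TEX2 (0.968), on log2 CPM, counts scaled to library depth. These r values share the same 8 libraries with the replicate differences, and no test was made. DSP, which encodes the desmosome protein desmoplakin, measured 117 and 162 FPKM in the NT libraries and 116 and 48.7 with TPL, with replicate 2 above replicate 1 in NT and below it with TPL, as for EGFR. The transcripts of DSP (8855 bases), MYO9A (8722) and AHNAK (18260) are longer than that of EGFR (5599), while those of TEX2 (5109) and CCNO (1579) are shorter.

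ERBB2, the partner receptor, measured 14.8 and 14.3 FPKM in the DMSO libraries of NT cells and 18.8 and 10.3 with TPL. Its TAM libraries showed 13.1 and 9.91 FPKM with DMSO and 6.50 and 5.77 with TPL. The TAM + TPL libraries were the lowest of the 8, and NT and NT + TPL overlapped. The log2 fold change with TPL was -0.94 in TAM cells (SE 0.269, edgeR adjusted p = 0.0361) and -0.01 in NT cells (SE 0.262, edgeR adjusted p = 0.979), and the difference of -0.92 (SE 0.375) had an adjusted p = 0.463.

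ERBB3, the receptor with the weak kinase, measured 11.8 and 9.89 FPKM in the DMSO libraries of NT cells and 7.49 and 10.4 with TPL. The TAM libraries gave 7.59 and 6.64 FPKM with DMSO and 7.09 and 9.35 with TPL. The groups overlapped with and without TPL in both cell states, and the log2 fold changes were -0.37 in NT (SE 0.164, edgeR adjusted p = 0.122) and -0.16 in TAM cells (SE 0.164, edgeR adjusted p = 0.472). In TAM cells the 2 measures went in opposite directions. Mean FPKM was 7.12 with DMSO and 8.22 with TPL, and the expected counts, before scaling for depth, were 234 and 215 against 170 and 220. ERRFI1, the inhibitor, measured 10.9 and 16.3 FPKM in the DMSO libraries of NT cells and 25.2 and 15.4 with TPL. The TAM values were 19.6 and 18.8 FPKM with DMSO and 21.8 and 24.2 with TPL. NT and NT + TPL overlapped, and the TAM + TPL libraries were above both TAM libraries. Its log2 fold changes were 0.56 in NT (SE 0.261, edgeR adjusted p = 0.131) and 0.21 in TAM cells (SE 0.258, edgeR adjusted p = 0.549).

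The next comparison asks whether transformation went with other levels of these mRNAs. Between TAM and NT cells with DMSO 0 of the 10 genes were called by edgeR, beside 0.655% of all genes. DESeq2 called 0 of the 10, beside 737 of 16231 genes. With limma 0 of the 10 were called, beside 140 of 14489 genes on log2(FPKM + 1) and 59 on log2(FPKM + 0.1). At an unadjusted edgeR p under 0.05 there were 6, the gene ID row of BTC among them. The share of all genes at that limit was not counted, here and in the comparisons that follow. At an adjusted p of at most 0.05 there were 3, all lower in TAM cells (6.84% of all genes in either direction). These were AREG (log2 fold change -0.97, SE 0.201, edgeR adjusted p = 0.0346), EPGN (-1.11, SE 0.205, edgeR adjusted p = 0.023) and the gene ID row of BTC, whose summed rows had 0.44. Both TAM libraries were below both NT libraries for AREG and EPGN. EGFR had a log2 fold change of -1.46 (SE 0.597, edgeR adjusted p = 0.235) and HBEGF -0.83 (SE 0.264, edgeR adjusted p = 0.133). For EGFR the lower NT replicate was above the higher TAM replicate, and without NT replicate 2 the value was -0.75.

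Between TAM + TPL and NT + TPL cells edgeR called 0 of the 10 (0.596% of all genes), with 5 at an unadjusted p under 0.05, the gene ID row of BTC among them. With limma 0 were called, beside 126 of 14489 genes on log2(FPKM + 1) and 53 on log2(FPKM + 0.1). DESeq2 called ERBB2 (log2 fold change -1.23, DESeq2 adjusted p = 9.86e-05), beside 666 of 16687 genes in all. At an adjusted p of at most 0.05 there were 2 (7.03% of all genes), ERBB2 (log2 fold change -1.26, SE 0.27, edgeR adjusted p = 0.0385) and the gene ID row of BTC. Without NT + TPL replicate 1 the ERBB2 value was -0.77. The effect of TPL differed between TAM and NT cells for 0 of the 10 genes by edgeR, with 0% of all genes called and 0.165% past an adjusted p of 0.05. At an unadjusted edgeR p under 0.05 there were 5, the gene ID row of BTC among them. With limma 0 were called, beside 0 of all 14489 genes, and DESeq2 called 2, AREG and the gene ID row of BTC. DESeq2 called 143 of 16687 genes here.

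RNAPII peaks over the TSS of the canonical transcript were read from the 4 lists, which give starts and ends without scores, so that they allow no test. In the NT list all 10 TSSs lay in a peak, where 47.7% of 19881 protein-coding TSSs did. In the NT + TPL list 5 of the 10 did (38.2% of all), in the TAM list 7 (42.1%) and in the TAM + TPL list 5 (37.4%). The same 5 genes, EGFR, AREG, HBEGF, TGFA and ERRFI1, were occupied in all 4 lists. Of 10 TSSs occupied in NT, 5 had no peak in NT + TPL, where 22.9% of 9488 TSSs occupied in NT had none. Of 7 occupied in TAM, 2 had none in TAM + TPL, where 19.1% of 8366 had none. The peak names of the TAM list carry another threshold (0.1) than those of the other lists (0.02), so a difference between TAM and the rest cannot be told apart from the threshold.

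HBEGF had a peak of 376 bases in NT and of 1000 bases in NT + TPL, and of 224 bases in TAM and 754 in TAM + TPL. With TPL the peak widened to both sides of the TSS, from 119 bases upstream and 256 downstream to 342 and 657 in NT cells. The width ratio was 2.66 in NT and 3.37 in TAM cells. Of all TSSs with a peak in both lists, 2.05% of 7316 in NT and 2.57% of 6766 in TAM cells had a ratio as large, and the medians were 0.877 and 1.04. Among the 5 genes with a peak in all lists HBEGF was the gene with wider peaks with TPL, in NT and in TAM cells.

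The peaks of EGFR, AREG, TGFA and ERRFI1 were narrower with TPL. That of EGFR had 2624 bases in NT and 480 with TPL, and 596 bases in TAM and 162 with TPL. Its ratios of 0.183 and 0.272 were reached or undercut by 2.76 and 2.78% of TSSs. The NT peak reached 2369 bases past the TSS, and the others at most 509. The AREG peak of 7915 bases in NT ended 7550 bases past the TSS, and it had 507 bases with TPL, and 937 bases in TAM and 560 with TPL, with ratios of 0.0641 in NT (0.355% of TSSs as small) and 0.598 in TAM cells (13.6%). The TGFA peak had 1640 bases in NT cells and 606 with TPL, and 1795 and 776 in TAM cells, with ratios of 0.37 (10.1% as small) and 0.432 (6.83%). That of ERRFI1 had 1046 and 712 bases, and 2125 and 820, with ratios of 0.681 (31.3%) and 0.386 (5.48%).

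EREG, EPGN, ERBB3, ERBB2 and BTC had no peak over this TSS in either TPL list. EREG had a peak of 429 bases in NT, and in the TAM list a peak of 165 bases began 5 bases past its TSS. EPGN (248 bases) and ERBB3 (607 bases) had theirs in the NT list alone. ERBB2 had 453 bases in NT and 457 in TAM, and BTC 865 and 356. At annotated ERBB2 start sites further upstream all 4 lists held a peak, with its middle 12078 to 12129 bases before the canonical TSS, within chr17:37843832-37844588. It had 698 bases in NT and 524 with TPL, and 714 bases in TAM and 452 with TPL. With a peak over any annotated TSS counted, 6 of the 10 genes were occupied in each TPL list, 10 in the NT list and 8 in the TAM list. The TAM peak of EREG counts under this rule. The share of all genes under it was not counted.

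**Figure D5:**
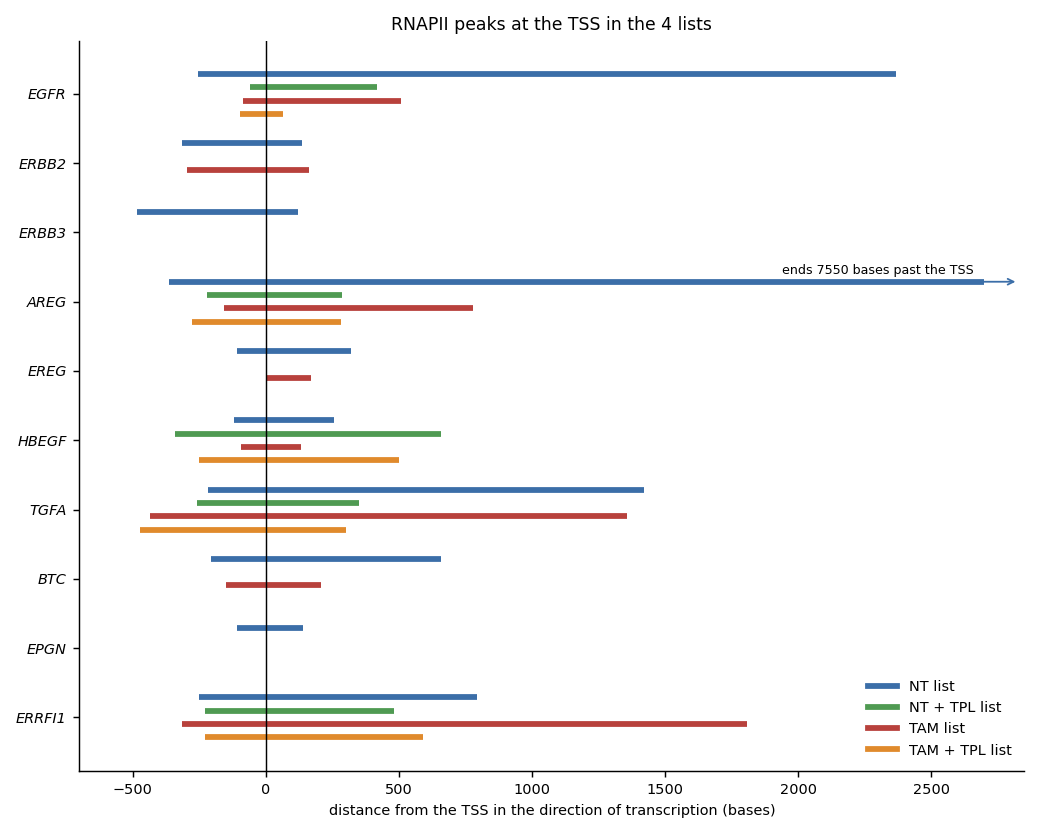
RNAPII peaks at the canonical TSS of each gene in the 4 lists, drawn by their distance from the TSS in bases along the direction of transcription (horizontal axis), with 1 bar per list. HBEGF bars are longer with TPL, those of EGFR, AREG, TGFA and ERRFI1 are shorter, and the other 5 genes have no bar in the TPL lists.

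The EGFR start site is shown for comparison with HBEGF, since both windows are rich in G and C (75.3 and 75%) and hold GC boxes without TATAAA, and their peaks changed in width in opposite ways. It is chr7:55086460-55086759 of GRCh37 on the plus strand, with GC boxes in capitals.
EGFR: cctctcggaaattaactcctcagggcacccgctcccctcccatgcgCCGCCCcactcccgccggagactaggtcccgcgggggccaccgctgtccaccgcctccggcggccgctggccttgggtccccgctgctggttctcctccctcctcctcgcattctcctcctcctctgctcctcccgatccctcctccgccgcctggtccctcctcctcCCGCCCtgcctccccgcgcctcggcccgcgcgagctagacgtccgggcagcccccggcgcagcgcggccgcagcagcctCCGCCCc
It holds 3 GC boxes, at -204, -36 and 44, and GC boxes were found in 6 of the 10 genes. EPGN had the lowest share of G and C, 37.7%.

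The other genes of the pathway were read from 4 lists. For their counts at an unadjusted p under 0.05 the share of all genes was not counted. Among 6 further receptors and ligands 3 passed the filter on low counts, and 0 were called by edgeR with TPL in either cell state (1 at an unadjusted p under 0.05 in NT and 0 in TAM cells, and 1 and 0 by DESeq2). Of all genes edgeR called 1.22% higher and 2.71% lower in NT and 0.844% and 2.04% in TAM cells, and DESeq2 called 2534 of 16231 and 2272 of 16687. NRG1, a ligand of ERBB3, had 2.02 and 3.12 FPKM in NT and 0.27 and 0.11 in NT + TPL (log2 fold change -3.91, SE 0.698, edgeR adjusted p = 0.00615), with 5 and 2 counts in the TPL libraries. In TAM cells NRG1 had 0.48 and 0.46 FPKM, and 0.43 and 0.21 with TPL (edgeR adjusted p = 0.405). EGF had at most 0.51 FPKM and NRG4 at most 1.58, and neither passed an adjusted p of 0.05 with TPL. The receptor ERBB4 and the ligand NRG3 had no row in any of the 8 libraries.

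Among 9 genes that shed ligands or control shedding, all tested, 0 were called with TPL by edgeR or DESeq2. Of all genes edgeR called 1.22% higher and 2.71% lower in NT, and 0.844% and 2.04% in TAM cells. DESeq2 called 2534 of 16231 in NT and 2272 of 16687 in TAM cells. At an adjusted p of at most 0.05 there were 3 lower in NT (19.8% of all genes) and 2 in TAM cells (18.6%), with 3 in each at an unadjusted p under 0.05. Between TAM and NT cells 1 gene of the 9 was called (0.655% of all genes), TIMP3, an inhibitor of ADAM17, which was lower in TAM cells. It had 25.3 and 31.2 FPKM in NT and 4.64 and 4.93 in TAM (log2 fold change -2.54, SE 0.18, edgeR adjusted p = 0.000566). The others past an adjusted p of 0.05 there were the proteases ADAM12 (log2 fold change 1.65, edgeR adjusted p = 0.0471) and ADAM15 (-0.80, edgeR adjusted p = 0.011), named after their values were seen.

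Among 18 genes that restrain or turn over the receptors, 1 was called lower with TPL in NT (2.71% of all genes) and 0 in TAM cells (2.04%). DESeq2 called 2 in NT, beside 2534 of 16231 genes, and 1 in TAM cells, beside 2272 of 16687. At an adjusted p of at most 0.05 there were 1 higher and 5 lower in NT (17.2% and 19.8% of all genes) and 0 and 3 in TAM cells (14.3% and 18.6%), and at an unadjusted p under 0.05 there were 8 and 5. LRIG3, a membrane protein of the family that includes the EGFR antagonist LRIG1, had 178 and 231 counts in NT and 2 and 1 in NT + TPL, at least 63.9-fold lower against a floor of 3 counts per library (edgeR adjusted p = 0.000244). In TAM cells it had 106 and 131 counts, and 20 and 14 with TPL (log2 fold change -2.74, SE 0.337, edgeR adjusted p = 0.00171). The difference between its TPL effects was 4.17 (SE 0.568, edgeR adjusted p = 0.0595), a fitted value that rests on 1 and 2 counts in NT + TPL.

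Among 28 adaptors and signal relays, 1 was called lower with TPL in NT (2.71% of all genes) and 0 in TAM cells (2.04%). DESeq2 called 5 in NT, beside 2534 of 16231 genes, and 4 in TAM cells, beside 2272 of 16687. At an adjusted p of at most 0.05 there were 2 higher and 9 lower in NT (17.2% and 19.8% of all genes) and 1 higher and 7 lower in TAM cells (14.3% and 18.6%). NCK1, an adaptor that links receptor tyrosines to the actin skeleton, had 8.80 and 9.10 FPKM in NT and 2.51 and 1.67 in NT + TPL (log2 fold change -2.08, SE 0.225, edgeR adjusted p = 0.000971). In TAM cells it had 7.90 and 8.13 FPKM, and 2.05 and 2.69 with TPL (log2 fold change -1.78, SE 0.223, edgeR adjusted p = 0.00181). The log2 fold changes of this list with TPL had a median of -0.41 in NT cells (0.09 over all genes) and -0.35 in TAM cells (0.05).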

How the data were processed

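RNA-Seq was made from poly-A RNA of 8 cultures (4 groups of 2 biological replicates), and RNAPII ChIP-Seq with the antibody 8WG16 from 8 samples with 2 inputs. The expected counts were estimated by the authors with RSEM after Bowtie2 alignment and deposited without normalization, and the FPKM values were deposited from the same RSEM run. The authors aligned ChIP reads to hg19 with SOAP2 per the methods, called peaks with MACS (1.4.2 per the labels, which also name BWA and HOMER without a role) and deposited 1 list per group, named as peaks with a TSS inside. How replicates entered a list is not given in the sources used here.

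Rows absent from a library were taken as 0. Gene IDs were matched to symbols with a RefSeq table used for names only, and 143 of 23604 rows were not matched. Rounded expected counts were fitted with edgeR 4.0.16 (run in R 4.3.3, scaled by TMM, low rows dropped by filterByExpr, quasi-likelihood test, p adjusted by Benjamini-Hochberg over 16948 genes) in 1 fit of the 4 groups. The limits for a call were 0.001 for the adjusted p and 1.2 for the size of the log2 fold change, as in the study's methods. Standard errors were derived from the fold change and its F statistic. Depth was 7461309 to 8349448 counts per library, and p values rest on 2 replicates per group. The fits were tested on simulated counts. Alternatives were DESeq2 1.42.0, limma 3.58.1 on log2(FPKM + 1) and log2(FPKM + 0.1), other scalings, filters and thresholds, a replicate block and leaving out each library. Start sites came from GENCODE release 44 on GRCh37, and promoters from the GRCh37 sequence. All 24 standard chromosome names of the lists matched this build, and 182 peaks on 15 other names were not used. Positions count from 1.

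The text names all 10 genes, every called gene of each pathway list (otherwise the 2 with the smallest p for each TPL effect), and the 5 genes most like EGFR. The genes and lists were chosen with earlier results of these data known. The ChIP-Seq signal was not analysed here.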

Additional observations from a re-analysis of the deposited data

Results flagged for a closer look

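AREG and TGFA were singled out because their TPL libraries lay on opposite sides of the DMSO libraries in NT and in TAM cells. The share of all genes with such a pattern was not counted, so how unusual it is with 2 libraries per group is not known. For AREG the difference between the TPL effects (TAM minus NT, log2) was 1.49 (SE 0.284, edgeR adjusted p = 0.149), with both TPL libraries lower in NT and both higher in TAM cells. For TGFA it was -0.92 (SE 0.284, edgeR adjusted p = 0.334), with both TPL libraries higher in NT and both lower in TAM cells. The separation in NT cells was narrow, with 14.4 FPKM in NT + TPL replicate 2 and 13.9 in NT replicate 2. Neither passed the adjusted test. The gene ID row of BTC lay on opposite sides too, but its summed rows did not, and it is left out for that reason. DESeq2 called the AREG difference (1.5, DESeq2 adjusted p = 1.95e-05). Summed over its 3 rows, TGFA gave a difference of -0.94 (SE 0.307, edgeR adjusted p = 0.224).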

How the results depend on the processing

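With 2 replicates per group, the counts of calls moved with most choices near the limit of 0.001. For TPL in NT cells 1 gene was called. It was 5 at an adjusted p of 0.05 with no minimum fold change, 2 with DESeq2, GAPDH as reference, no filter on low counts, at least 10 counts in every library or summed accession rows, and 0 with limma on log2(FPKM + 0.1), a fit on the groups compared only, or any library left out (0 to 0). For TPL in TAM cells 2 were called. It was 4 at an adjusted p of 0.05, 1 with upper quartile normalization, library size only or limma on log2(FPKM + 1), 0 with limma on log2(FPKM + 0.1), and 0 to 2 with a library left out. TAM against NT went from 0 to 3 and TAM + TPL against NT + TPL from 0 to 2 at an adjusted p of 0.05. DESeq2 gave 1 for the latter and 2 for the difference between the TPL effects. Several of these fits called 0 genes of all tested, so a lost call there says little about stability. Over the settings that keep the libraries, the log2 fold change of HBEGF with TPL ranged from 2.94 to 3.5 (NT cells) and from 3.37 to 3.74 (TAM cells), and that of EREG from -2.08 to -1.5 and from -2.21 to -1.75. Scaling moved the median over all genes (log2, TPL in NT cells) from 0.09 to 0.31 (upper quartile) or -0.26 (GAPDH), and that of TAM against NT from -0.03 to -0.50 (GAPDH).

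The replicate numbers pair no samples by the labels, and the deviations of same-numbered libraries correlated between -0.14 and 0.05. With a replicate block 0 of the 10 genes and 0 of all genes were called with TPL in NT and in TAM cells, and HBEGF had 3.30 (edgeR adjusted p = 0.00104) and 3.51 (edgeR adjusted p = 0.0012). With the NT + TPL numbers crossed in the replicate block, chosen after seeing the data, 0 of the 10 and 98 of all genes were called with TPL in NT cells.

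The sign turned in the following results, and the cause was not tested. ERBB2 with TPL in NT cells (-0.01) was 0.01 with DESeq2 size factors or library size only, 0.21 with upper quartile normalization, 0.05 with at least 10 counts in every library and -0.47 to 0.35 with a library left out (0.35 without NT + TPL replicate 2). ERBB3 with TPL in TAM cells (-0.16) was 0.08 with upper quartile normalization and 0.18 and 0.20 with limma, and between TAM + TPL and NT + TPL (-0.04) it was 0.01 with upper quartile normalization and -0.13 to 0.09 with a library left out (0.09 without replicate 1 of either group). EPGN with TPL in TAM cells (0.21) was -0.06 to 0.51 with a library left out (-0.06 without TAM replicate 1). The gene ID row of BTC, at 0 counts in both TAM libraries (fitted log2 fold change -7.24 against NT, edgeR adjusted p = 0.0328), gave 0.44 with its rows summed. Between TAM + TPL and NT + TPL, TGFA (-0.30) was -0.53 to 0.02 with a library left out (0.02 without NT + TPL replicate 1), and ERRFI1 (0.16) was -0.05 with GAPDH as reference and -0.11 to 0.55 with a library left out (-0.11 without NT + TPL replicate 2). The difference between the TPL effects turned for EGFR (-0.69, -0.63, -0.25 and -0.03 without replicate 2 of NT, NT + TPL or TAM or replicate 1 of TAM + TPL, up to 1.16), HBEGF (-0.11 without NT replicate 1, -0.02 without TAM replicate 2, up to 0.49) and ERRFI1 (-0.67 to 0.01, the latter without NT + TPL replicate 1).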
